A study of Caenorhabditis elegans with 8 samples.

Results

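The genes described here encode the nuclear pore complex and the soluble factors that carry cargo through it. They were taken as every gene whose symbol is npp-, imb-, ima-, xpo- or ran- followed by a number and for which at least 1 intron was listed in the authors' junction table. Of 40 genes with such a symbol in the reference annotation, 39 met this rule, out of 5762 genes in the table. They comprised 25 npp genes, 3 ima genes, 3 imb genes, 5 ran genes and 3 xpo genes. They held 252 of the 20164 listed introns that carried a gene name. The reference annotation gave these genes 320 introns, which were compared with the listed ones by number and not by position. The gene without a listed intron was npp-26. Every listed intron had more than 20 reads in each control library, with library minima of 21 to 22, so introns used rarely in control worms were outside the table.

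The libraries were made from whole adult Caenorhabditis elegans of the wild-type N2 strain, 4 from control worms and 4 from spk-1(RNAi) worms. Worms at the L4 larval stage, grown at 20 °C, were moved onto E. coli carrying the empty L4440 feeding vector (control) or the vector making spk-1 double-stranded RNA, and feeding lasted 24 h at 25 °C. For either condition no fewer than 100 adults were taken, and sequencing was of polyadenylated RNA with dUTP strand marking. Feeding RNAi lowers the message in most tissues but to an extent that varies between tissues, and whole-worm RNA mixes all of them. Because the labels do not state separate cultures for the replicates, the p-values below describe the spread among these libraries alone, and that spread may be technical. In such bulk RNA, fewer cells of a type and less RNA per cell cannot be told apart.

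SPK-1 is the worm SR protein kinase, which phosphorylates splicing factors of the SR protein family. In mammals, this phosphorylation takes part in the import of those splicing factors through a carrier of the importin beta family. The nuclear pore is built from several subcomplexes, a ring scaffold, a channel of phenylalanine-glycine repeat proteins, membrane anchors, cytoplasmic filaments and a nuclear basket. Importins release their cargo, and exportins bind theirs, on meeting the GTP-bound form of the small GTPase Ran. In worms many of these genes are strongly expressed in the germline, where oocytes are stocked with pores and import factors for the embryo.

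Reads over introns totalled 1813478 to 47156665 per control library and 2651772 to 40300307 per spk-1(RNAi) library. Levels are given in CPM, which are junction reads brought to a common library size after scaling by the trimmed mean of M values (TMM). Of the 10 listed introns of spk-1, 8 were lower in spk-1(RNAi) in all 4 numbered pairs, and the introns after exons 6 and 7 were higher in all 4. Over the 8, chosen by these values, CPM was 337, 313, 488 and 541 in control and 52.2, 74.7, 154 and 164 in spk-1(RNAi) replicates 1 to 4. Reads of the message and of the fed double-stranded RNA cannot be told apart here, and all spk-1 introns together took up to 0.063% of the junction reads of a control library and 0.179 to 6.27% of those of an spk-1(RNAi) library. Summed CPM of germline markers, all 15 of them measured, ran from 4890 to 7003 in control and from 4551 to 6626 in spk-1(RNAi) libraries. Those of oocyte and early embryo markers, all 16 measured, ran from 11911 to 15727 and from 12041 to 15759. Germline sums in control replicates 1 to 4 were 7003, 4890, 6806 and 6874 CPM. In spk-1(RNAi) replicates 1 to 4 they were 6626, 4551, 6525 and 6532 CPM, lower in all 4 pairs. Oocyte and early embryo sums went in both directions. All 7 muscle markers measured of 12, all 7 intestinal ones of 10 and all 5 hypodermal ones of 9 had positive log2 fold changes. Of the 15 germline markers, 4 were higher and 11 lower. None of these was called by edgeR's quasi-likelihood test. At an unadjusted p of 0.05 the test with replicate number as a block gave all 5 hypodermal, 4 of 7 muscle, 1 of 7 intestinal and 2 of 15 germline markers, against 9.6% of all genes, and the test without it 2 hypodermal ones. The median log2 fold change was 0.79 for the hypodermal, 0.25 for the muscle, 0.19 for the intestinal and -0.07 for the germline markers. Hypodermal sums ran from 599 to 1343 CPM in control and from 992 to 1971 CPM in spk-1(RNAi) libraries. Hypodermal and muscle sums were higher in spk-1(RNAi) in all 4 pairs, and intestinal sums in all but pair 1. The part of all these tissues in the values below was not tested. None of 8 sperm markers had a listed intron.

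No nuclear pore or transport gene passed the test between control and spk-1(RNAi) worms, and the fitted changes were small. None of the 39 genes was called at an adjusted p of 0.05 by edgeR's quasi-likelihood test with Benjamini-Hochberg adjustment over all genes. The same test called 0 of all 5762 genes, or 0%, with group as the only term and again with replicate number as a block. The targeted gene spk-1, whose reads may include the fed RNA, was thus not called either. Its log2 fold change was 5.06 with a standard error of 1.13. With the block it was 3.38 with a standard error of 0.76 and an adjusted p of 0.192. At an unadjusted p of 0.05 the quasi-likelihood test gave 54 genes of the table (0.937%) and 0 of the 39 without the block. With the block it gave 553 genes (9.6%) and 1 of the 39 (2.56%), the exportin gene xpo-3. DESeq2 called 0 genes without the block, where 84 had an unadjusted p under 0.05, and 51 with it, and 0 of the 39 either way. Summed over the 39 genes, CPM was 10160 ± 704 CPM in control and 10065 ± 887 CPM in spk-1(RNAi) worms (SD, n = 4 each).

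Their log2 fold changes ran from -0.32 to 0.24. Of the 39 genes, 18 were higher and 21 lower, with a median of -0.011, against a median of -0.004 over all genes. With the block, 20 were higher and 19 lower. Over all genes, 49% were higher without the block and 51.2% with it. The absolute log2 fold change exceeded 0.25 in 2 of the 39 genes and in 23.8% of all genes. It exceeded 0.5 in 0 of the 39 and in 5.9% of all genes. The groups did not overlap in CPM for 60 genes of the table (1.04%) and for 0 of the 39. The spk-1(RNAi) library lay on the same side of its control in all 4 numbered pairs for 19.2% of the table and for 3 of the 39 genes (7.69%). These 3, all lower, were xpo-3, imb-3 and npp-12.

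The intervals bound how large a change these libraries could hide. The 95% interval of the log2 fold change lay within -1 to 1 for 37 of the 39 genes, so that neither a doubling nor a halving was inside it. The exceptions were xpo-2, at -1.11 to 0.87, and ran-4, at -0.84 to 1.16. With the replicate block, which takes out the differences between numbered pairs, all 39 intervals lay within -1 to 1 and 35 within -0.5 to 0.5. Standard errors ran from 0.17 to 0.45 without the block and from 0.10 to 0.16 with it.

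**Figure D1:**
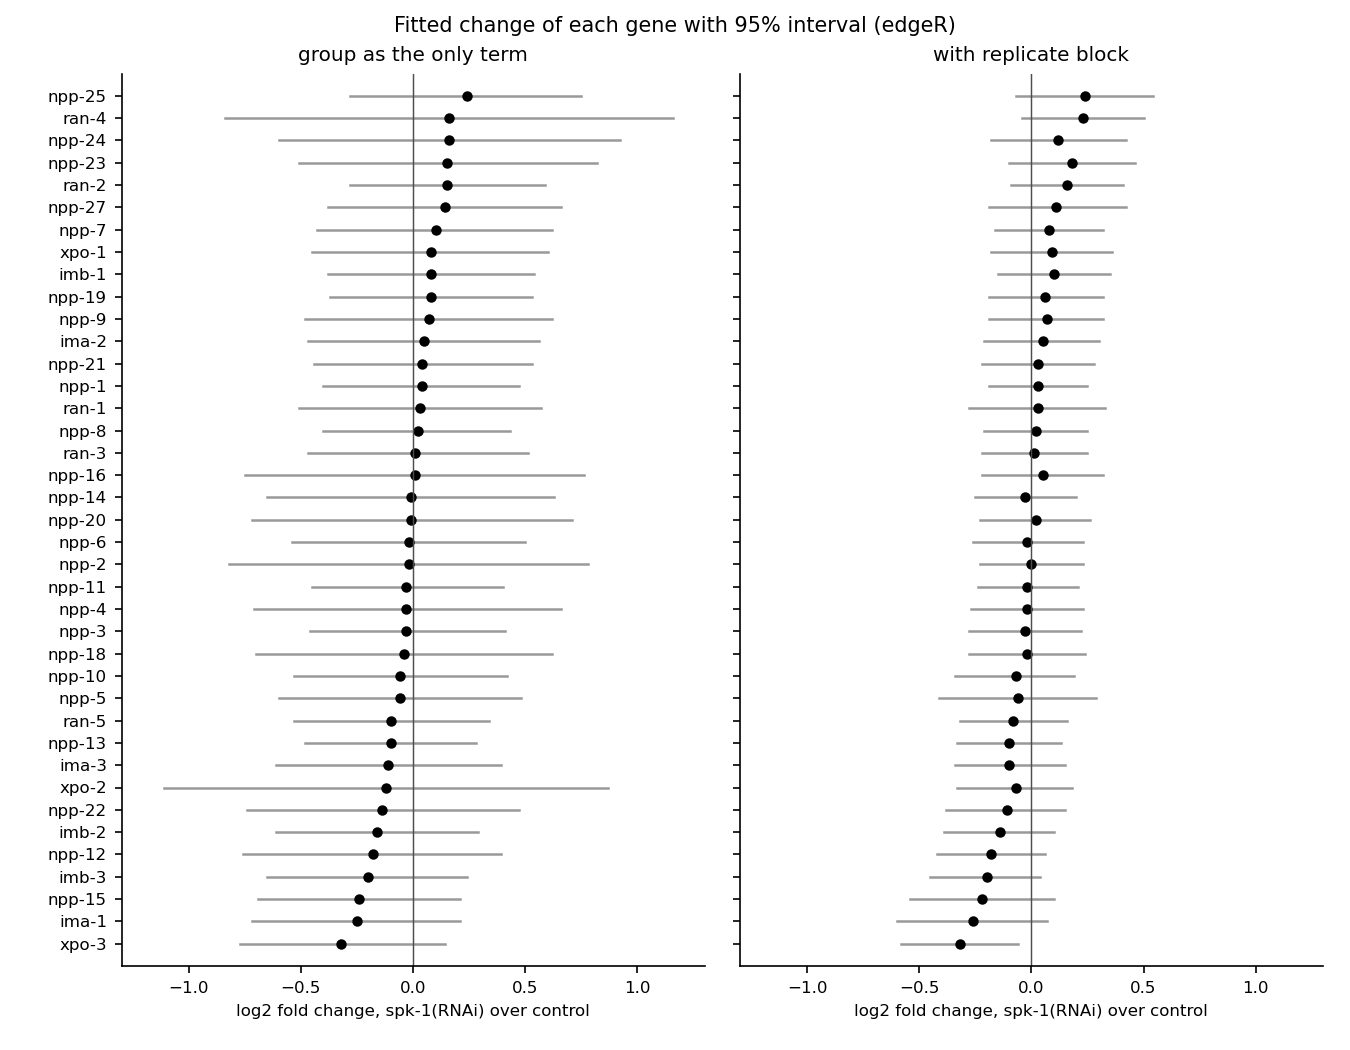
Fitted log2 fold change (x axis, spk-1(RNAi) over control) of each of the 39 genes (y axis) by edgeR, with group as the only term (left) and with replicate number as a block (right). Points are estimates and bars 95% intervals, and with the block the interval of xpo-3, -0.58 to -0.06, is the only one of the 39 that leaves out 0.

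Levels between genes were compared as CPM per listed intron, since genes with more introns collect more junction reads. The highest was ran-1, the gene of the GTPase Ran, at 452 ± 66.3 CPM per intron in control worms (SD, n = 4). The next were the importin alpha gene ima-2, whose control libraries ran from 100 to 152 CPM per intron, npp-9 (Nup358, also called RanBP2, of the cytoplasmic filaments) at 98.1 ± 17.8 and imb-3 (importin 5) at 97.8 ± 8.68. These 3 did not differ from one another beyond their spread, and all lay below every control library of ran-1. The guanine nucleotide exchange factor gene ran-3 followed at 70.3 ± 12 and ima-3 at 64.4 ± 13.9, again within their spread. The other 33 genes fell between 44.3 ± 23.4 in xpo-2 and 12.2 ± 3.96 in npp-24 (Nup88). Between neighbours in the order of these 33, each difference was smaller than the larger of the 2 SDs, except that npp-24 lay further below npp-6, at 18.1 ± 3.8. A gene's own introns also differed in reads, by a median of 2.43 times between the highest and the lowest intron in control worms, and by more than 2 times in 28 of the 39 genes. These levels average listed introns alone, each with more than 20 reads in every control library, so they leave out introns with fewer reads. For npp-24, 5 introns were listed against 13 annotated, and its lowest library held 136 reads. The effect of this limit on the low levels and on the spread between introns was not tested.

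**Figure D2:**
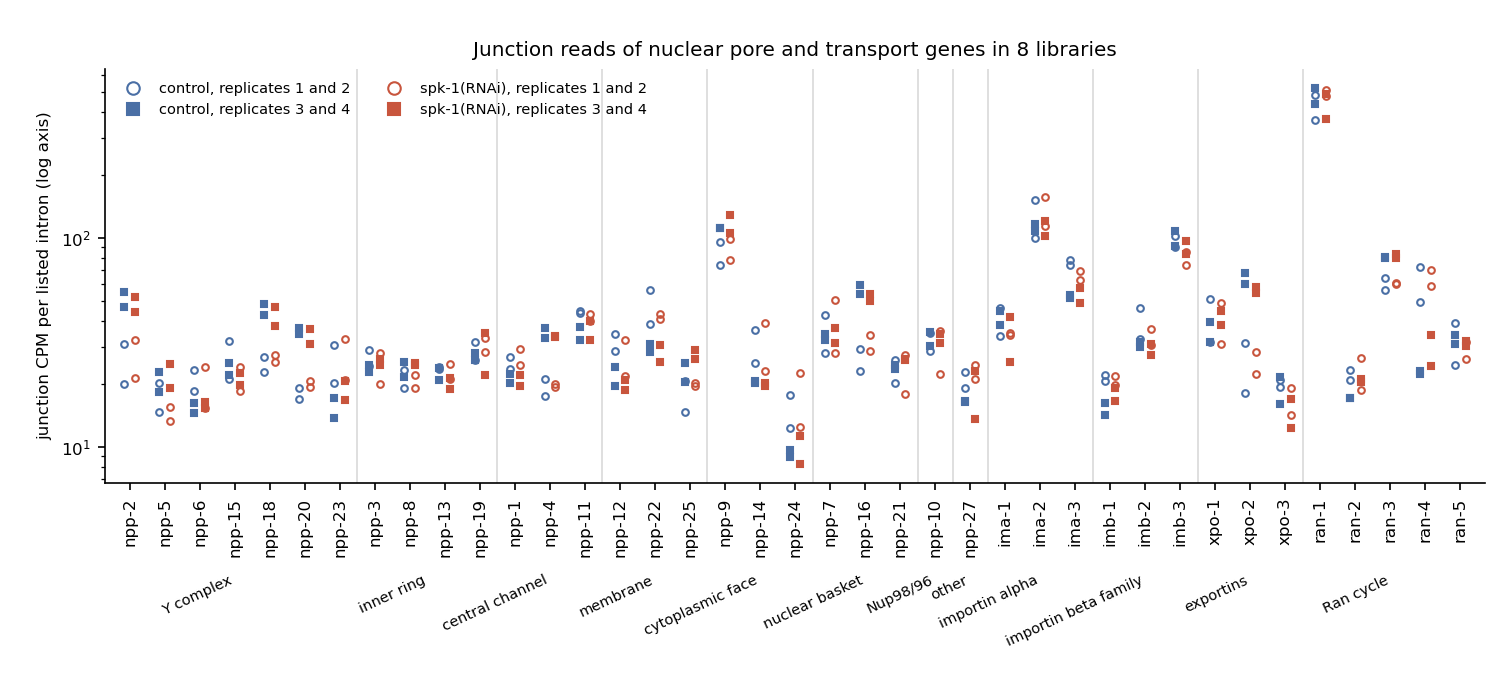
Junction CPM per listed intron (y axis, log scale) of the 39 genes by role (x axis) in each library. Blue marks are control and red marks spk-1(RNAi), open circles replicates 1 and 2 and filled squares replicates 3 and 4. The gene ran-1 stands above all others in every library, and for each gene the blue and red marks overlap.

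Among carriers, the lowest log2 fold change of the 39 genes was that of xpo-3, the worm exportin-t, which carries tRNA out of the nucleus. Its CPM in control replicates 1 to 4 was 135, 145, 113 and 151. In spk-1(RNAi) replicates 1 to 4 it was 134, 99.4, 85.9 and 118. The spk-1(RNAi) value was the lower in each of the 4 pairs, by least in pair 1, where the ratio was 0.992, and the groups overlapped. The log2 fold change was -0.32 with a standard error of 0.20 (95% interval -0.77 to 0.14). With the replicate block it was -0.32 with a standard error of 0.12, an unadjusted p of 0.0191 and an adjusted p of 0.434 in edgeR's quasi-likelihood test, so the gene was not called.

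The other exportins are xpo-1, the worm CRM1, which exports proteins with leucine-rich signals, and xpo-2, the worm CAS, which returns importin alpha to the cytoplasm. For xpo-1, CPM was 355, 223, 222 and 276 in control and 341, 216, 311 and 267 in spk-1(RNAi) replicates 1 to 4. Only in pair 3 was the spk-1(RNAi) value the higher, at 1.4 times, and the log2 fold change was 0.08 (95% interval -0.45 to 0.60). For xpo-2, CPM was 126, 72.3, 241 and 271 in control and 113, 89.5, 219 and 233 in spk-1(RNAi) replicates 1 to 4. Replicates 3 and 4 of both groups lay far above replicates 1 and 2, and the log2 fold change of -0.12 had an interval of -1.11 to 0.87, which the replicate block narrowed to -0.33 to 0.18.

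The importin beta family gene imb-3, whose product imports ribosomal proteins and histones in other species, was lower in all 4 pairs. Its CPM was 613, 541, 546 and 648 in control and 512, 445, 504 and 578 in spk-1(RNAi) replicates 1 to 4. The lowest control value lay between the second highest and the highest spk-1(RNAi) value, and the pair ratios ran only from 0.822 to 0.922. The log2 fold change was -0.20 without the block (95% interval -0.65 to 0.24) and with it (-0.45 to 0.04), and the adjusted p of edgeR's quasi-likelihood test with the block was 0.57. For imb-1, importin beta itself, CPM was 264, 247, 170 and 195 in control and 262, 237, 230 and 198 in spk-1(RNAi) replicates 1 to 4. Pairs 1, 2 and 4 had ratios of 0.957 to 1.02 and pair 3 one of 1.35, and the log2 fold change was 0.08 (-0.38 to 0.54). The transportin gene imb-2 stood at 106 ± 22.3 CPM in control and 94.3 ± 11.3 CPM in spk-1(RNAi) worms (SD, n = 4 each).

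Importin alpha proteins link cargo with the classical import signal to importin beta, and the worm has 3 genes for them, of which ima-2 and ima-3 are known for germline roles. The gene ima-1 gave 135, 185, 178 and 154 CPM in control and 136, 141, 102 and 168 CPM in spk-1(RNAi) replicates 1 to 4. Pairs 1 and 4 were higher and the other two lower, and the log2 fold change was -0.25 (95% interval -0.72 to 0.21). For ima-2 the values were 609, 401, 431 and 465 CPM in control and 623, 457, 484 and 407 CPM in spk-1(RNAi) replicates 1 to 4. Here 3 of 4 pairs were slightly higher, and the log2 fold change was 0.05 (-0.47 to 0.56). For ima-3 the values were 373, 390, 258 and 267 CPM in control and 347, 312, 244 and 287 CPM in spk-1(RNAi) replicates 1 to 4. Only pair 4 was higher, and the log2 fold change was -0.11 (-0.61 to 0.39).

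The Ran cycle genes set the gradient that gives transport its direction, and 4 of the 5 had log2 fold changes above 0, against 49% of all genes. The direction turned in 6 of 28 fits for ran-1, in 8 for ran-3 and in 3 for ran-4. The Ran gene ran-1 gave 1928, 1470, 2087 and 1743 CPM in control and 2029, 1906, 1954 and 1476 CPM in spk-1(RNAi) replicates 1 to 4. Pairs 1 and 2 were higher and pairs 3 and 4 lower, with a log2 fold change of 0.03 (95% interval -0.51 to 0.57). For ran-2, the worm RanGAP, which makes Ran hydrolyse GTP in the cytoplasm, the values were 139, 125, 102.6 and 103.1 CPM in control and 160, 112, 126 and 122 CPM in spk-1(RNAi) replicates 1 to 4. All pairs but pair 2 were higher, and the log2 fold change was 0.15 (-0.28 to 0.59). For ran-3, the worm RCC1, which loads Ran with GTP on chromatin, they were 322, 281, 399 and 403 CPM in control and 301, 303, 417 and 399 CPM in spk-1(RNAi) replicates 1 to 4. The pair ratios of ran-3 ran only from 0.934 to 1.08, and its log2 fold change was 0.01 (-0.47 to 0.51).

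For ran-4, the worm NTF2, which carries Ran back into the nucleus, CPM was 218, 148, 69.0 and 66.7 in control and 210, 176, 103.3 and 72.9 in spk-1(RNAi) replicates 1 to 4. Within either group, replicates 1 and 2 lay far above replicates 3 and 4, while 3 of 4 pairs were higher in spk-1(RNAi). The log2 fold change of 0.16 became 0.23 with the replicate block (95% interval -0.04 to 0.50), and the adjusted p of edgeR's quasi-likelihood test was then 0.572. The Ran-binding protein gene ran-5 stood at 161 ± 30.6 CPM in control and 150 ± 12.9 CPM in spk-1(RNAi) worms (SD, n = 4 each).

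Among pore subunits, the Y complex, the scaffold of both outer rings, had 1 gene higher and 6 lower, where 49% of all genes were higher. Log2 fold changes in the complex ran from -0.24 to 0.15. The lowest was npp-15, the worm Nup133, with 147, 225, 154 and 176 CPM in control and 168, 129, 138 and 157 CPM in spk-1(RNAi) replicates 1 to 4. Pair 2 made most of the difference, with a ratio of 0.575, while pair 1 was higher, and the 95% interval of the log2 fold change was -0.69 to 0.21. The gene that was higher was npp-23, the worm Nup43, with 154, 101, 68.7 and 85.9 CPM in control and 164, 104, 103.3 and 84.2 CPM in spk-1(RNAi) replicates 1 to 4. Pair 3, at 1.5 times, stood apart from the other 3 pairs, at 0.98 to 1.07 times, and the log2 fold change was 0.15 (-0.51 to 0.82). For npp-6, the worm Nup160, CPM was 302, 241, 210 and 188 in control and 314, 200, 201 and 214 in spk-1(RNAi) replicates 1 to 4. Pairs 1 and 4 were higher and the other two lower, and the log2 fold change was -0.02 (-0.54 to 0.50). The other 4 genes of the complex, npp-2, npp-5, npp-18 and npp-20, had log2 fold changes between -0.06 and -0.01. With the block, npp-2 stood at 0.00 and npp-20 at 0.02, so the split into higher and lower genes was not kept.

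The membrane subunits anchor the pore in the nuclear envelope. Of these, npp-25 had the highest log2 fold change of the 39 genes. Its CPM was 61.7, 43.8, 61.2 and 75.3 in control and 58.9, 61.0, 86.9 and 78.9 in spk-1(RNAi) replicates 1 to 4. Pair 1 was lower and the other 3 pairs higher, the groups overlapped, and the log2 fold change was 0.24 (95% interval -0.28 to 0.75), or 0.24 with the block (-0.07 to 0.54, adjusted p of 0.591 in edgeR's quasi-likelihood test). The gene npp-12, the worm gp210, was lower in all 4 pairs, at 375 ± 90.7 CPM in control and 330 ± 86.2 CPM in spk-1(RNAi) worms (SD, n = 4 each), with a log2 fold change of -0.18 (-0.76 to 0.39). The transmembrane subunit gene npp-22, the worm NDC1, had a log2 fold change of -0.14 (-0.74 to 0.47).

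On the cytoplasmic face, npp-24 (Nup88) gave 88.5, 61.4, 48.3 and 44.9 CPM in control and 112, 62.1, 41.3 and 56.6 CPM in spk-1(RNAi) replicates 1 to 4. Pair 3 was lower and the other 3 pairs higher, and the log2 fold change was 0.16 (95% interval -0.60 to 0.92). Its partner npp-14 (Nup214) had a log2 fold change of -0.01 and npp-9 one of 0.07. The 3 nuclear basket genes npp-7 (Nup153), npp-16 (Nup50) and npp-21 (Tpr) had log2 fold changes of 0.10, 0.01 and 0.04, all above 0 and none called. The 4 inner ring genes npp-3, npp-8, npp-13 and npp-19, which join the outer rings to the channel, lay between -0.10 and 0.08. The 3 channel genes npp-1, npp-4 and npp-11, whose products form the Nup54, Nup58 and Nup62 complex, lay between -0.03 and 0.04. The gene npp-10, whose product is cut into Nup98 and Nup96, was at 324 ± 33.5 CPM in control and 311 ± 61.3 CPM in spk-1(RNAi) worms (SD, n = 4 each), and npp-27 at 75 ± 12 and 82.5 ± 19.6 CPM.

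**Figure D3:**
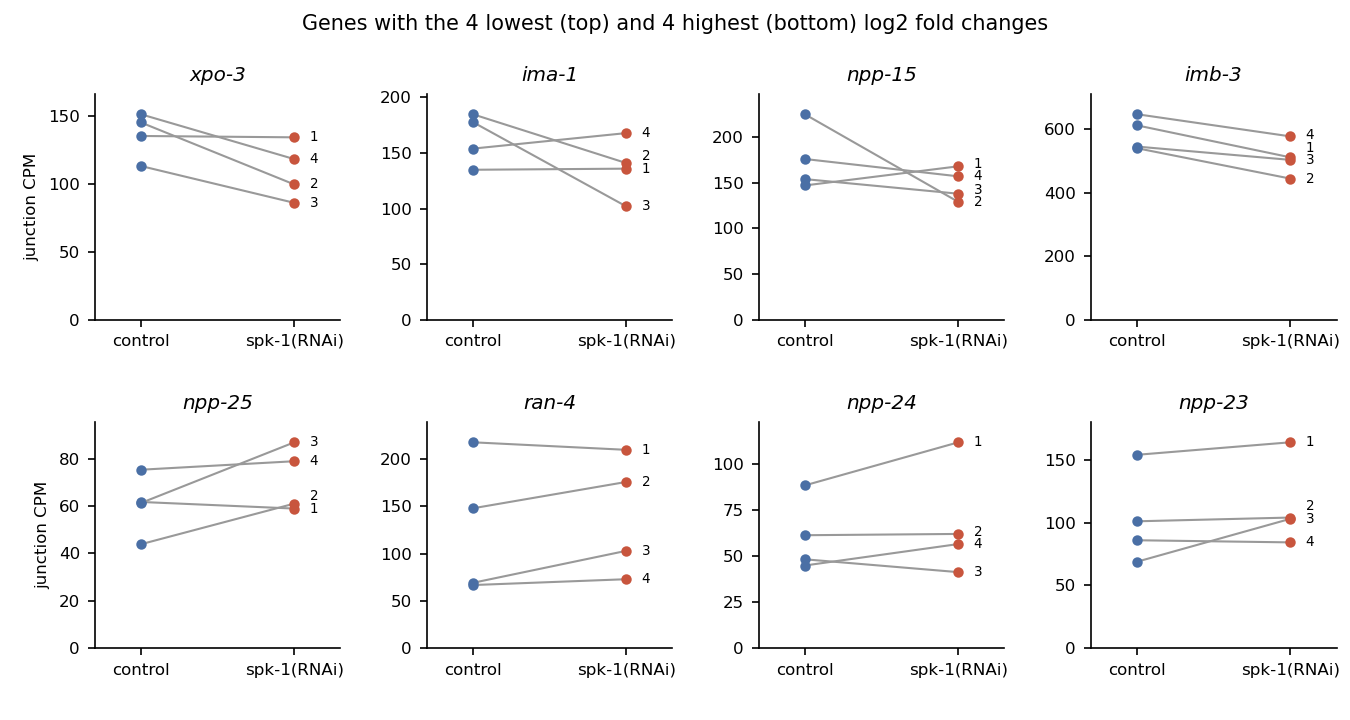
Junction CPM (y axes, from 0) in control and spk-1(RNAi) libraries for the genes with the 4 lowest (top row) and 4 highest (bottom row) log2 fold changes. Lines join libraries with the same replicate number, printed at the right. All 4 lines slope downward for xpo-3 and imb-3, and in every panel the groups overlap.

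Among genes listed for related functions, 0 were called, and 0 had an unadjusted p under 0.05 in edgeR's quasi-likelihood test with or without the block. The list names do not describe every gene in them, such as mog-5 and ntl-2. All 16 genes of the mRNA export list, which included mog-5, were measured. Of these, 10 were higher and 6 lower with a median log2 fold change of 0.06, from -0.20 in thoc-1 to 0.34 in thoc-3. For thoc-3, a subunit of the THO complex that couples transcription to export, CPM was 46.5 ± 12 in control and 58.9 ± 12.3 in spk-1(RNAi) worms (SD, n = 4 each). Of 16 nuclear envelope and lamina genes 14 were measured, 6 higher and 8 lower with a median of -0.03, from -0.13 in the emerin gene emr-1 to 0.26 in baf-1. Of 13 genes on the list of SUMO and other transport factors, which included ntl-2, 10 were measured. Of these, 6 were higher and 4 lower with a median of 0.01, from -0.20 in aos-1 to 0.22 in rae-1. The symbols pqn-85, tnpo-3 and xpot-1 had no values here. The gene rae-1, an mRNA export factor bound to Nup98 and formerly named npp-17, stood at 104 ± 31.6 CPM in control and 121 ± 36.3 CPM in spk-1(RNAi) worms (SD, n = 4 each).

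Larger differences ran between replicates than between groups. Replicates 1 and 2 of both groups did not overlap replicates 3 and 4 of both groups in CPM for 16 of the 39 genes, 8 higher and 8 lower in replicates 3 and 4. The same held for 47% of all genes. The mean of replicates 3 and 4 was 2.58 times that of replicates 1 and 2 for xpo-2 in control and 2.23 times in spk-1(RNAi) worms. The basket gene npp-16, at 2.16 and 1.64 times, and the Y complex genes npp-2, at 2 and 1.79 times, npp-20, at 2 and 1.69 times, and npp-18, at 1.83 and 1.59 times, had ratios in the same direction. In the other direction, ran-4 in replicates 3 and 4 was at 0.371 times its level in replicates 1 and 2 in control and 0.457 times in spk-1(RNAi) worms, npp-24 at 0.621 and 0.561 times, and npp-22 at 0.627 and 0.667 times. Subunits of the Y complex lay in both directions, since npp-23 was at 0.606 and 0.698 times, although its sets overlapped. Summed CPM of the 7 measured muscle markers was 2665 to 5883 in replicates 1 and 2 of both groups and 9765 to 10560 in replicates 3 and 4, with no overlap. The 7 intestinal markers, at 35811 to 44624 and 64639 to 78742, and the 3 neuronal ones, at 64.2 to 96.6 and 138 to 164, also did not overlap. The 15 germline markers, at 4551 to 7003 and 6525 to 6874, and the 5 hypodermal ones, at 599 to 1971 and 1028 to 1730, did. The part of these tissues in the ratios was not tested. The labels name no batch, and each numbered pair lies within 1 set.

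**Figure D4:**
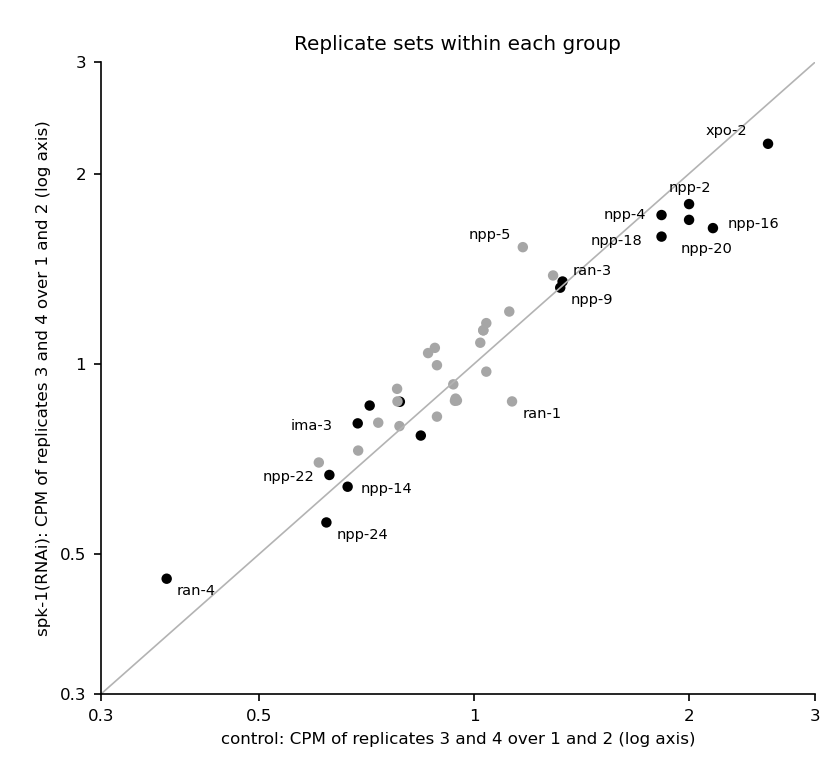
Mean CPM of replicates 3 and 4 over that of replicates 1 and 2 (log axes) in control (x axis) and in spk-1(RNAi) worms (y axis), with 1 point for each of the 39 genes and the line of equality. Black points are the 16 genes whose sets of replicates, taken over both groups, do not overlap, and they lie at both ends of the line, from ran-4 at 0.371 and 0.457 to xpo-2 at 2.58 and 2.23.

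The 252 introns were short, with a median of 50 nt against 57 nt for all listed introns and a range from 41 nt to 11554 nt, the longest being in npp-13. The 39 genes lay on chromosomes I (13), II (8), III (8), IV (7) and V (3), and 0 on X, which held 6.84% of all genes in the table. No listed intron of theirs overlapped the span of another listed gene. Coordinates below are those of the authors' table in the ce10 build, counted from 1.

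By intron, edgeR's quasi-likelihood test called 0 of the 252 with or without the replicate block, and 14 of all 20164 introns with it (0.0694%). At an unadjusted p of 0.05, it gave 0 of the 252 without the block against 173 of all introns (0.858%). With the block it gave 13 of the 252 (5.16%) against 1697 of all introns (8.42%). In all 4 pairs, 16 of the 252 introns (6.35%) were higher, against 8.35% of all introns, and 12 (4.76%) lower, against 8% of all. The lowest count of a listed intron was 21 or 22 reads in control libraries but 1 to 8 in spk-1(RNAi) libraries. Low counts were thus missing from the control side alone, and the effect on these comparisons was not tested. The groups did not overlap for 1 of the 252 (0.397%), against 168 of all introns (0.833%), namely the intron after exon 7 of imb-3 (chromosome I, 311578 to 311634, minus strand). Its CPM was 109, 107, 99.8 and 94.5 in control and 88.9, 84.3, 68.6 and 79.7 in spk-1(RNAi) replicates 1 to 4. Every spk-1(RNAi) library lay below every control library, and the adjusted p with the block was 0.612 in edgeR's quasi-likelihood test.

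The intron with the lowest p was the one after exon 8 of npp-21, the Tpr gene (chromosome II, 7602678 to 7602721, plus strand, 44 nt). Its CPM was 29.2, 10.4, 13.8 and 16.6 in control and 38.3, 15.2, 25.7 and 36.6 in spk-1(RNAi) replicates 1 to 4. It was higher in 4 of 4 pairs while the groups overlapped, and the log2 fold change with the block was 0.77 with a standard error of 0.20 and an adjusted p of 0.286 in edgeR's quasi-likelihood test. The intron after exon 2 of npp-7 (Nup153; chromosome I, 5692700 to 5692792, plus strand) was next, with 51.7, 13.1, 19.8 and 21 CPM in control and 66.9, 21.4, 40.2 and 28.4 CPM in spk-1(RNAi) replicates 1 to 4. It too was higher in every pair, with overlapping groups and a log2 fold change of 0.62 with the block (adjusted p of 0.355 in edgeR's quasi-likelihood test). In xpo-3, the intron after exon 2 (chromosome IV, 7923912 to 7923960, minus strand) was at 31.2 ± 14.3 CPM in control and 20.4 ± 8.50 CPM in spk-1(RNAi) worms (SD, n = 4 each), lower in 4 of 4 pairs with a log2 fold change of -0.64 with the block (adjusted p of 0.429 in edgeR's quasi-likelihood test).

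Introns within a gene were compared by each intron's share of its gene's junction reads, with diffSpliceDGE of edgeR. Introns that share no splice site do not compete, so such a share does not measure splicing alone. At an adjusted p of 0.05 with the block, diffSpliceDGE called 10 of 18772 introns in genes with several introns (0.0533%) and 0 of the 252. Without the block it called 8 of the 18772 and 0 of the 252. At an unadjusted p of 0.05 with the block it gave 558 introns (2.97%) and 5 of the 252 (1.98%). Without the block it gave 25 introns (0.133%) and 0 of the 252. The intron after exon 8 of npp-21 had the lowest p of the 252 here too, with a share higher in 4 of 4 pairs and an adjusted p of 0.647. By gene, the test with the block gave an unadjusted p under 0.05 for 115 of 4370 genes (2.63%) and for 2 of the 39 (5.13%), npp-21 at 0.0239 and ran-3 at 0.0384, both with an adjusted p of 1. Without the block it gave 3 genes (0.0686%) and 0 of the 39. In ran-3 the intron after exon 5 (chromosome II, 8323748 to 8323821, minus strand) had 96.5, 42.5, 19.8 and 23.3 CPM in control and 96, 95.7, 41.1 and 24.6 CPM in spk-1(RNAi) replicates 1 to 4. Pairs 2 and 3 held most of the difference, pair 1 was level, and the groups overlapped.

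Intron shares also separated the replicate sets. For 96 of the 252 introns (38.1%), the shares in replicates 1 and 2 of both groups did not overlap those in replicates 3 and 4. Over all introns in genes with several introns this was 36.5%. Of the 96, 46 had the higher share in replicates 3 and 4 and 50 the lower one. In xpo-1, the intron after exon 1 took 10.5, 5.68, 27.8 and 34.2% of the gene's junction reads in control and 11.3, 7.18, 31.7 and 32.4% in spk-1(RNAi) replicates 1 to 4. The intron after exon 2 of the same gene took 23.9, 26.6, 5.69 and 5.67% in control and 22.1, 21.5, 6.82 and 5.92% in spk-1(RNAi) replicates 1 to 4. These adjacent introns of xpo-1 thus changed places between the replicate sets, alike in both groups. In npp-4 the intron after exon 4 took 39.4 and 50.9% in control replicates 1 and 2 but 5.54 and 5.91% in control replicates 3 and 4. The share of that npp-4 intron in spk-1(RNAi) replicates 1 to 4 was 46.3, 47.1, 5.66 and 4.08%, again low in replicates 3 and 4 alone.

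Introns of 1 gene that start or end at the same place report on alternative splice sites, and 4 such sites lay in these genes. Of 134 shared sites in the table, the test with the block called 6 (4.48%) and the test without it 0, and 0 of these 4 were called either way. In npp-9 an acceptor was shared by introns of 176 nt (chromosome III, 3402967 to 3403142, minus strand) and 104 nt (3402967 to 3403070), whose donors lie 72 nt apart. The longer intron took 86.4, 74.8, 88.7 and 91.0% of their reads in control and 83.5, 72.2, 82.3 and 87% in spk-1(RNAi) replicates 1 to 4. It was lower in 4 of 4 pairs, by a mean of 3.99 percentage points, while the groups overlapped. Pair 2 rested on 111 reads in control and 115 in spk-1(RNAi) worms. How many of the 134 sites went the same way in all 4 pairs was not counted. The unadjusted p with the block was 0.12 and the adjusted p 0.918 in diffSpliceDGE of edgeR.

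In npp-10 a donor was shared by introns of 48 nt and 42 nt (chromosome III, minus strand, the longer at 6018989 to 6019036). The longer intron took 25.3 ± 2.05% in control and 26.5 ± 3.53% in spk-1(RNAi) worms (SD, n = 4 each), higher in 3 of 4 pairs. In npp-21 a donor was shared by introns of 50 nt and 41 nt (chromosome II, plus strand, the longer at 7606182 to 7606231), and the longer took 16.5 ± 3.03% and 13.2 ± 2.26% (SD, n = 4 each), higher in 1 of 4 pairs. An acceptor of npp-21 was shared by introns of 53 nt and 47 nt (the longer at 7606489 to 7606541), and the longer took 42.5 ± 5.33% and 41.2 ± 5.16% (SD, n = 4 each), higher in 2 of 4 pairs. Replicate 2 held only 61 reads at this acceptor in control and 53 in spk-1(RNAi) worms. The differences of 6, 9 and 6 nt are multiples of 3. At all 3 of these sites, the groups overlapped and both introns were used in every spk-1(RNAi) library. Every listed intron had reads in each control library, so the use of both in control worms followed from their being listed.

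**Figure D5:**
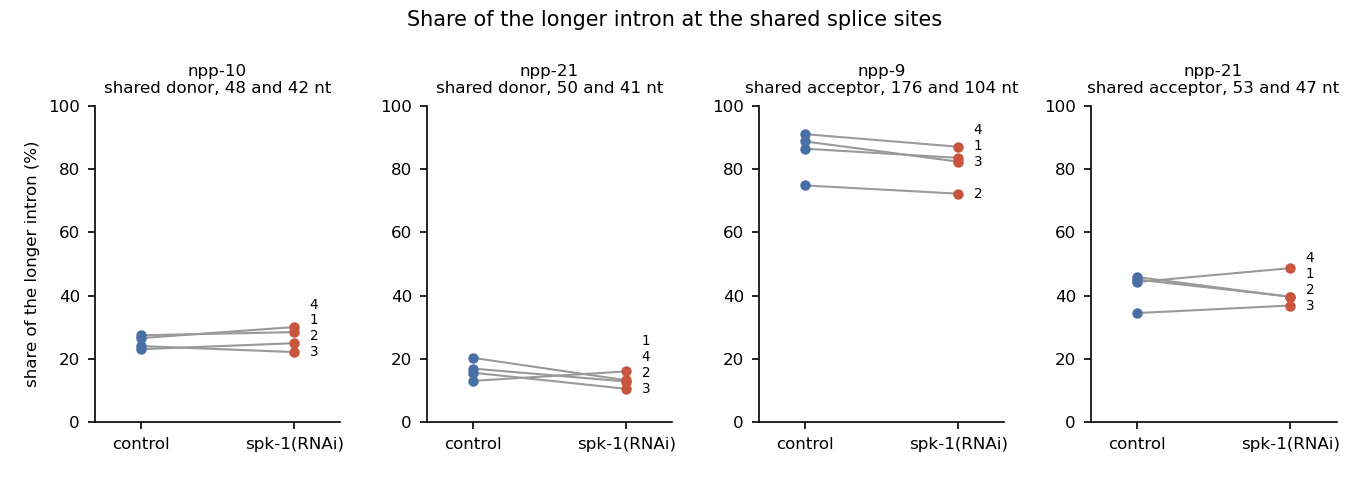
Share of the longer intron (y axes, percent of the reads of both introns) at the 4 shared splice sites, in control and spk-1(RNAi) libraries. Lines join libraries with the same replicate number, printed at the right. All 4 lines slope downward at the npp-9 acceptor, from 85.2 ± 7.20% to 81.2 ± 6.35% (SD, n = 4 each), and the other sites have lines in both directions.

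Exons were covered by the authors' deposited table of exon bins, whose p-values come from DEXSeq. That table tested 447 of 452 bins of these genes. In the authors' deposited table, 0 of the 447 had a p-value under 0.05, against 1112 of 112784 bins in all (0.986%), and the lowest p-value, 0.0514, was that of a bin of npp-8 with a mean signal of 10.8. Bins of npp-1, npp-6 and npp-24 in the authors' deposited table were shared with another gene.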

How the data were processed

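The authors deposited read counts over introns for 8 libraries, not normalized, per the file headers. Per the submitters' processing notes, TopHat 1.4.1, Bowtie2 2.0.0 and the build ce10 were used, without stated roles. Which counter and annotation made the table, and how introns were chosen for it, is not given in the sources used here. The authors' exon-bin table holds p-values and a mean signal per bin, made with DEXSeq according to its headers and name.

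Of 20349 introns, 25 stood on both strands and 1 copy of each was kept, which left 20324. Of these, 160 carried no gene and were left out, so library totals count the reads of 20164 introns, and 0.274 to 0.452% of junction reads lay outside them. Of 5762 genes, 5709 matched the reference annotation of the build WBcel235 by sequence name, which gave symbols and numbers of annotated introns only. Of 20026 intron lengths compared, 99% matched with listed starts counted from 0. A heading of spk-1(RNAi) replicate 1 was used for 2 columns, which were numbered 1 and 4 by the authors' ratio headings, whose values equalled the quotient of same-numbered columns in the digits printed, within 1 in the last digit. Columns of per-sample values that could not be assigned numbered 0.

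Reads were summed per gene and tested with edgeR 4.0.16 in R 4.3.3 (TMM scaling, quasi-likelihood test, Benjamini-Hochberg adjustment at 0.05), fitted on all 5762 genes, of which filterByExpr removed 0. Introns were tested likewise, and shares of introns within a gene or at a shared site with diffSpliceDGE. Group was the only term, and replicate number was added as a block. Deviations of same-numbered control and spk-1(RNAi) libraries from their group means correlated at 0.89, 0.69, 0.73 and 0.78, and the authors' ratios pair the same numbers, so the numbers were taken to pair the libraries. Control replicate 3 with spk-1(RNAi) replicate 4, and 4 with 3, both correlated at 0.71, so between these replicates the pairing rests on the authors' ratios. Alternatives were DESeq2 1.42.0, other scalings, a mean of at least 100 reads, single libraries or pairs left out, and subsets of pairs. The steps were tested on simulated data. Totals of 1813478 to 47156665 reads make the smallest libraries the least precise, with 97 reads in the lowest gene and library.

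Genes given with values in every library were those with an unadjusted p under 0.05, the 4 highest and 4 lowest log2 fold changes, the Ran cycle and main carriers, and the 2 highest and 2 lowest levels per intron. The genes and lists were chosen with earlier results of these data known.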

Additional observations from a re-analysis of the deposited data

Results flagged for a closer look

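In 5 of 86 groups of 4 libraries examined, 1 library stood apart from the other 3 by Dixon's criterion, a gap large against the group's range, and chance alone sets apart about 1 in 20 such groups. The transportin gene imb-2 was at 139 CPM in control replicate 2 and at 90.5 to 98.5 CPM in the other controls. The Nup160 gene npp-6 was at 314 CPM in spk-1(RNAi) replicate 1 and at 200 to 214 CPM in the other spk-1(RNAi) libraries. The Nup93 gene npp-13 was at 147 CPM in control replicate 3 and at 165 to 168 CPM in the other controls. The Tpr gene npp-21 was at 376 CPM in spk-1(RNAi) replicate 2 and at 549 to 575 CPM in the other spk-1(RNAi) libraries. At the shared acceptor of npp-21, the longer intron took 34.5% in control replicate 3 and 44.3 to 45.9% in the other controls.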

How the results depend on the processing

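None of the 39 genes, their introns or their 4 shared sites was called under any alternative run, and the lowest adjusted p of a gene given with values in every library was 0.333. The replicate block left the count of called genes at 0 and raised other counts, to 14 introns from 0 and to 6 shared sites from 0. For intron shares it raised them to 3 genes from 1 and to 10 introns from 8. Without pair 1, 2, 3 or 4 the blocked counts were 5, 7, 0 and 0 genes, 29, 14, 12 and 11 introns, 3, 3, 3 and 3 genes for intron shares, and 4, 4, 3 and 5 sites, the last 3 kinds tried after seeing the data, as were the blocked fits with other scalings. DESeq2 with the block called 51 genes, pairs 2 and 3 alone with the block 17, and pairs 3 and 4 alone 7. Of 17 genes given in every library, 6 kept their direction in all 28 fits, with log2 fold changes from -0.61 to -0.08 for ima-1, -0.27 to -0.14 for imb-3, -0.47 to -0.05 for npp-15, 0.12 to 0.49 for npp-25, 0.04 to 0.27 for ran-2 and -0.47 to -0.21 for xpo-3.

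Log2 fold changes that turned were small, and the cause was not tested. With pairs 3 and 4 alone they were -0.02 for ima-2, 0.01 for ima-3, 0.05 for npp-6 and -0.17 for ran-1, and with pairs 1 and 2 alone -0.04 for imb-1, -0.05 for xpo-1 and 0.02 for xpo-2. With pairs 2 and 3 and the block they were -0.11 for npp-24 and 0.07 for xpo-2. With the block and without pair 2 they were 0.06 for npp-6, -0.09 for ran-1 and -0.02 for ran-3, and without pair 3 -0.02 for imb-1, -0.01 for ran-3 and -0.05 for xpo-1. With library totals alone, which moved the median of all genes to -0.046 (-0.022 with the block), they were -0.02 for ran-3, and with the block -0.01 for ran-1 and -0.02 for ran-3. Leaving out 1 library at a time gave ranges of -0.09 to 0.19 for ima-2, -0.02 to 0.18 for imb-1, -0.20 to 0.12 for npp-6, -0.07 to 0.42 for npp-23, -0.19 to 0.41 for npp-24, -0.06 to 0.12 for ran-1, -0.08 to 0.09 for ran-3, -0.10 to 0.58 for ran-4, -0.02 to 0.24 for xpo-1 and -0.37 to 0.16 for xpo-2.

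Depth limits replicate 2 of both groups most. Introns seldom used in control worms are outside the table, and junction reads do not measure intron retention.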
